A study of Mus musculus with 18 samples.

Results

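Erythroblasts of mice that carry 1 D45 and 1 KO allele of Klf1 (D45/KO) were compared with those of mice with 2 wild-type alleles (WT/WT). The comparison used the 7 libraries whose labels give these genotypes, 4 of D45/KO and 3 of WT/WT, of 18 libraries in all. The D45 allele, from the MommeD45 line, is a missense change, and the series title places such changes in linker-2 of the KLF1 protein, a short stretch between zinc fingers. KO stands for the knockout allele, so D45/KO cells have no wild-type copy of Klf1. No label read here says how the KO allele was made, or gives strain, age or sex. The other 11 libraries came from WT/D45 (3), D45/D45 (3) and WT/KO (5) mice and served to estimate the spread. Each library was made from spleen cells of 1 mouse identifier, sorted for CD71, the transferrin receptor, and TER119, an antigen of maturing red cells. In the series design the compound heterozygote is anaemic from haemolysis, with an enlarged spleen and more erythroblasts. A direct effect of the alleles and a response of the spleen to anaemia cannot be told apart in this contrast.

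KLF1 is a zinc finger transcription factor of red cell precursors that binds GC-rich CACCC-type elements in promoters and enhancers. It is known for switching on beta globin, haem synthesis enzymes, membrane and skeleton proteins and blood group antigens, and for guiding cell cycle exit in late erythroblasts. The linkers between its fingers help to position them in the DNA groove.

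The 7 libraries differed in makeup within each genotype. Depth ran from 20746055 to 23460520 counts in WT/WT and from 10506403 to 43330766 in D45/KO. Globin transcripts took 12.6% ± 2.77 of counts (SD, n = 4) in D45/KO and 31.6% ± 19.4 (SD, n = 3) in WT/WT (exact two-sided permutation p = 0.286, where 0.0571 is the smallest that 4 against 3 can give). WT/WT replicate 1 had a share of 9.91%, below all D45/KO libraries, and replicates 2 and 3 had 37.8% and 47.2%. This share rests on beta globin, since the alpha globin symbols Hba-a1 and Hba-a2 were each under 1 CPM in all 7 libraries. B cell markers, summed over 16 genes, reached 236 to 1384 CPM in WT/WT replicate 1 and in D45/KO replicates 1 to 3, and 4.21 to 10.95 CPM in the other 3 libraries. Macrophage markers, summed over 20 genes, stood at 3459 CPM in D45/KO replicate 2 and between 124 and 576 CPM in the other 6 libraries. Erythroid markers (Tfrc, Slc4a1, Alas2, Epor, Gata1, Klf1, Ermap and Rhag) were detected in all 7 libraries. Mice with an identifier under 200 were 1 WT/WT (replicate 1) and 2 D45/KO (replicates 1 and 3), and the labels do not call this number a batch. In bulk samples fewer cells of a type and less RNA per cell cannot be told apart.

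**Figure D1:**
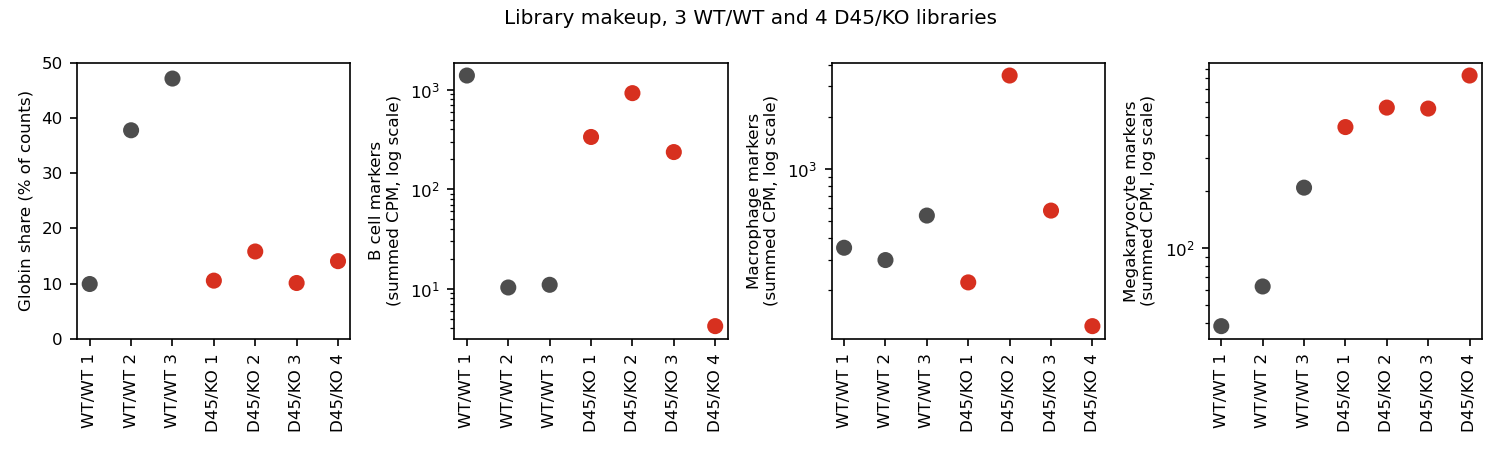
Share of counts from globin genes (percent) and summed levels of B cell, macrophage and megakaryocyte markers (CPM, log scale) in each of the 3 WT/WT (grey) and 4 D45/KO (red) libraries, 1 point per library. WT/WT replicate 1 lies with D45/KO in globin share and has the highest B cell marker sum, 1384 CPM, while all 4 D45/KO libraries lie above all 3 WT/WT libraries in the megakaryocyte panel.

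Klf1 transcript itself was present in both genotypes. It was measured at 452, 1047 and 964 CPM in WT/WT replicates 1, 2 and 3 and at 585, 282, 676 and 763 CPM in D45/KO replicates 1 to 4. CPM here are counts per 1000000 of a library size adjusted by the trimmed mean of M-values (TMM), and the libraries of a genotype are always given in replicate order. The 2 groups overlapped, and the log2 fold change of D45/KO over WT/WT was -0.51 ± 0.60 (SE), which did not pass the test (edgeR quasi-likelihood adjusted p = 0.976). Counts do not separate transcripts of the D45 allele from any of the KO allele, so these levels check the labels only in part.

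Genome-wide, 83 of 13405 genes tested (0.619%) were called at an adjusted p under 0.05 with edgeR's quasi-likelihood test, which is what rose, fell and called mean here. Of these, 35 rose (0.261% of the genes tested) and 48 fell (0.358%) in D45/KO. At an unadjusted p under 0.05 there were 1197 genes (8.93%), 640 higher (4.77%) and 557 lower (4.16%). The CPM of the 2 groups did not overlap for 82 of the 83, against 10.2% of all genes tested, and the exception was S100a13, a member of the S100 calcium-binding family. The median over all tested genes was 0.07 on the log2 scale, with 54.2% above 0, and list medians below are read beside it. Falls were the larger changes, with a median of -2.99 over the 48 and of 2.10 over the 35 that rose, as a description of the called genes only. When each of the 7 libraries was left out in turn, 16 genes were called in every fit. They were Clint1, Scai and Ttyh3, which rose, and Cacna1g, Dok4, Eef2k, Fbxl19, Gm16793, Nacad, Nxpe2, Slc1a5, Slc6a20a, Snx22, Svip, Tac2 and Tinagl1, which fell. Another 8 of the 83 were called in none of these 7 fits. The count itself was 121 without WT/WT replicate 1, 60 without D45/KO replicate 2, and between 19 and 31 without any one of the other 5 libraries, lowest without WT/WT replicate 2. All 83 kept their sign in every fit, which the lack of overlap between the groups largely fixes. The called genes are set out below by what they encode, an order made after the calls were known and not tested as groups.

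**Figure D2:**
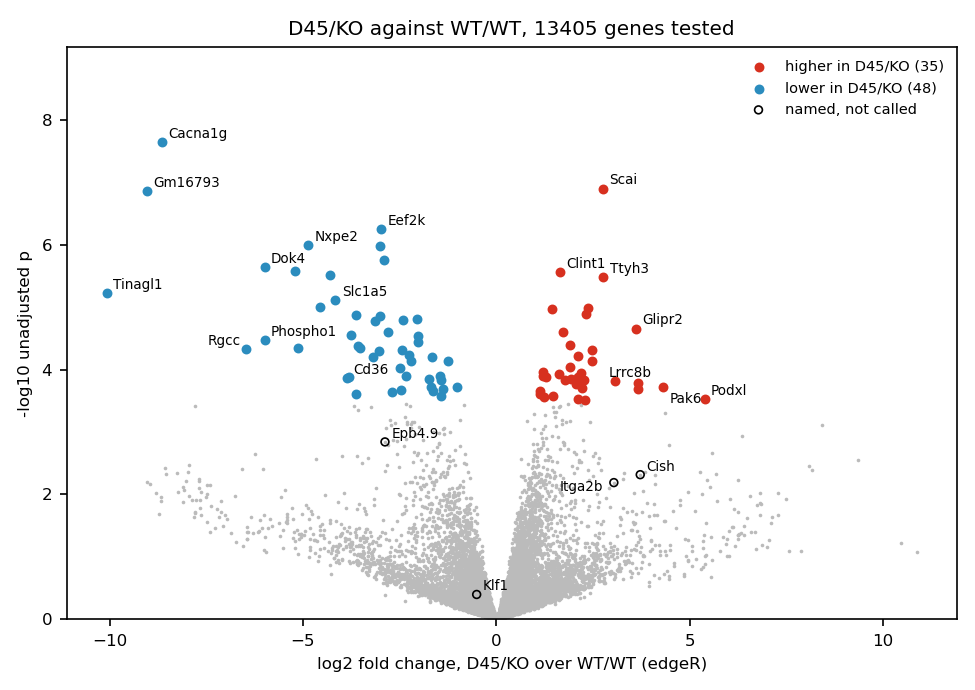
Log2 fold change of D45/KO over WT/WT (x axis) against -log10 of the unadjusted p (y axis) for the 13405 genes tested, with 35 genes that rose in red, 48 that fell in blue and 4 genes that were not called but are named in the text ringed in black. The largest fall among called genes is that of Tinagl1, at -10.07, and the largest rise that of Podxl, at 5.38.

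Of genes for transporters and channels, Cacna1g, Slc1a5, Slc6a20a and Slc2a4 fell and Lrrc8b rose. Cacna1g, the pore-forming subunit of a T-type voltage-gated calcium channel, was at 44.6, 143 and 68.8 CPM in WT/WT. In D45/KO it was at 0.233, 0.0891, 0.348 and 0.231 CPM, from 31 counts over the 4 libraries. No D45/KO library came near any WT/WT library, and the log2 fold change was -8.63 ± 0.88 (SE, edgeR adjusted p = 3.1e-04), the smallest adjusted p of the comparison. Slc1a5, a sodium-dependent exchanger of glutamine and other neutral amino acids, stood at 216, 604 and 665 CPM in WT/WT and at 26.5, 22.1, 25.05 and 36.9 CPM in D45/KO (-4.16 ± 0.66, adjusted p = 0.00737). The 4 mutant libraries were close together, and the spread lay in WT/WT, where replicate 1 was lowest. Slc6a20a, a transporter of proline and other imino acids, was even in WT/WT, at 23.1, 30.8 and 25.4 CPM, and low in every D45/KO library, at 1.06, 1.34, 0.522 and 2.34 CPM (-4.31 ± 0.63, adjusted p = 0.00363). Slc2a4, the insulin-responsive glucose transporter GLUT4, fell from 63.5, 134 and 124 CPM to 7.79, 6.01, 8.44 and 15.3 CPM (-3.52 ± 0.64), though its call held in only 2 of the 7 fits that leave out a library. Lrrc8b, part of the anion channels that open when a cell swells, was at 7.67, 4.75 and 15.1 CPM in WT/WT and at 92.6, 82.5, 173 and 115 CPM in D45/KO (3.66 ± 0.78, adjusted p = 0.0393, called in none of the 7). Of the 49 membrane transporters and channels tested, 1 rose and 2 fell, the median was 0.20, and 30 lay above 0, and the list does not hold Cacna1g or Slc6a20a. With the B cell marker level of each library as a covariate, 3 of the 49 were called higher and 4 lower, where 2.67% and 1.59% of all tested genes were. The members with the next largest differences were not called. They were Slc22a4, a carrier of ergothioneine, with -2.72 ± 0.66 (adjusted p = 0.088), and Atp1b2, a beta subunit of the sodium pump, with 2.24 ± 0.58 (adjusted p = 0.127).

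Tinagl1, a secreted matricellular glycoprotein, had the largest fall of all. Its WT/WT libraries stood at 89.2, 232 and 164.1 CPM and its D45/KO libraries at 0.296, 0.0891, 0 and 0.115 CPM, from 27 counts in all. That is a difference between abundant and nearly absent, and its fitted log2 fold change of -10.07 ± 1.55 (adjusted p = 0.00609) rests on these few counts in its size. Tac2, the precursor of the tachykinin neurokinin B, fell from 20.1, 27.2 and 16.9 CPM to 1.96, 1.78, 1.39 and 1.73 CPM (-3.63 ± 0.60, adjusted p = 0.00933), with little spread in either genotype. Cd36, a receptor for fatty acids and thrombospondin found on early red cell precursors, was at 219, 666 and 1118 CPM in WT/WT and 34.8, 34.98, 72.7 and 42.5 CPM in D45/KO (-3.85 ± 0.78, adjusted p = 0.032). Its WT/WT libraries spread widely, and the call held in 1 of the 7 fits that leave out a library. Hs6st1, a sulfotransferase that modifies heparan sulfate, fell from 168, 379 and 301 to 55.7, 43.8, 54.4 and 55.3 CPM (-2.43 ± 0.45), and Apol8, of the apolipoprotein L family, from 144, 408 and 266.9 to 13.1, 7.22, 32.96 and 34.6 CPM (-3.64 ± 0.79). Cd36 was the only called gene among 30 blood group and surface glycoproteins tested. That list had a median of -0.53, with 6 above 0. Cd59a, an inhibitor of the complement membrane attack complex, was at 27.4, 109 and 168 CPM and 21.3, 16.7, 20.8 and 21.9 CPM and narrowly missed the threshold (-2.33 ± 0.52, adjusted p = 0.0565). The median of this list was 0.21 among mice with an identifier under 200 and -0.63 among those over 200.

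Phospho1, a phosphatase that releases phosphate from phosphocholine and phosphoethanolamine, was at 6.28, 42.2 and 95.8 CPM in WT/WT and 0.778, 0.446, 1.74 and 0.173 CPM in D45/KO. The WT/WT libraries differed widely, with replicate 1 lowest, yet all lay above D45/KO (-5.99 ± 1.07, adjusted p = 0.0157, called in 2 of the 7). It was the 1 gene called among 27 of phospholipid asymmetry and turnover (median -0.20). Pcyt1a, the enzyme that controls the rate of phosphatidylcholine synthesis, was lower in every D45/KO library (76.8, 45.3, 75.9 and 82.2 CPM) than in any WT/WT library (205, 408 and 421 CPM) but was not called (-2.30 ± 0.55, adjusted p = 0.084). Sec14l1, of the family of lipid-binding Sec14 proteins, fell from 58.1, 152 and 153 to 18.7, 32.1, 20.6 and 19.5 CPM (-2.41 ± 0.40), and Paqr4, of the progestin and adiponectin receptor family, from 11.1, 11.6 and 8.39 to 1.01, 1.87, 1.04 and 1.10 CPM (-3.03 ± 0.56).

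Among genes of signalling, Dok4, Rgcc, Eef2k, Pak4, Sipa1 and Lck fell, and Pak6 and Rap1gap rose. Dok4, a docking protein for receptor tyrosine kinases, fell from 13.7, 46.2 and 25.3 CPM to 0.731, 0.267, 0.348 and 0.404 CPM (-5.99 ± 0.85, adjusted p = 0.00363). Rgcc, a regulator of the cell cycle, fell from 36.1, 165.7 and 105 CPM to 1.34, 1.78, 1.39 and 0.0577 CPM (-6.48 ± 1.19, adjusted p = 0.0178), and replicate 4 held the lowest of these. Eef2k, the kinase that inhibits translation elongation factor eEF2, was much more even. It was at 107, 216 and 160.0 CPM in WT/WT and 18.99, 24.1, 16.9 and 21.2 CPM in D45/KO (-2.99 ± 0.38, adjusted p = 0.00188). Pak4, a p21-activated kinase, fell from 19.3, 63.5 and 44.05 to 9.27, 4.19, 11.05 and 9.23 CPM (-2.33 ± 0.47) while Pak6, of the same kinase family, rose from 0.400, 0.158 and 2.33 to 17.1, 20.7, 17.7 and 18.5 CPM (4.32 ± 0.91). Each was called in 1 of the 7 fits that leave out a library. A second pair moved apart in the same way. Sipa1 and Rap1gap both encode activating proteins of the Rap GTPase. The former fell by 1.02 on the log2 scale (178, 240.8 and 189.9 against 89.8, 94.9, 112 and 105 CPM), and the latter rose by 2.48 (14.2, 4.91 and 7.69 against 48.4, 34.8, 53.6 and 64.1 CPM). Lck, a kinase of T cells, fell from 18.2, 28.2 and 23.7 to 7.79, 11.2, 9.31 and 6.32 CPM (-1.43 ± 0.31, called in 1 of the 7). The other T and NK cell markers were not called (median of 20 genes -0.0076), and their summed level was 30.2 to 57.5 CPM in WT/WT and 11.3 to 56.5 CPM in D45/KO. The defining T cell gene Cd3e was at 0.799, 0 and 0.466 CPM in WT/WT and at 0.327, 1.07, 0.174 and 0.0577 CPM in D45/KO.

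Snx22, a sorting nexin, stood at 121, 258 and 200.1 CPM in WT/WT and at 4.82, 4.54, 4.87 and 6.63 CPM in D45/KO (-5.21 ± 0.75, adjusted p = 0.00363). Nxpe2, of the neurexophilin and PC-esterase domain family, fell from 248, 479 and 430.1 CPM to 10.98, 8.69, 15.7 and 17.6 CPM (-4.87 ± 0.65, adjusted p = 0.00234). For both, the lowest WT/WT library exceeded the highest D45/KO library many times over. Svip, a small inhibitor of the ATPase VCP in protein degradation at the endoplasmic reticulum, fell from 31.3, 49.1 and 28.7 to 3.41, 7.04, 4.001 and 4.82 CPM (-2.91 ± 0.41), and Nacad, related to the nascent polypeptide-associated complex, from 9.05, 29.1 and 29.4 to 1.151, 0.891, 1.04 and 0.692 CPM (-4.57 ± 0.74). Fbxl19, an F-box protein that binds CpG islands, fell from 20.8, 47.1 and 41.1 to 6.27, 3.56, 3.57 and 4.70 CPM (-3.001 ± 0.40). Samd4, an RNA-binding repressor of translation related to Smaug, fell by 3.20 on the log2 scale, and Tfcp2, known as the alpha globin transcription factor CP2, by 2.69, with WT/WT replicate 3 close to D45/KO (10.2, 29.1 and 5.83 against 3.02, 2.41, 2.70 and 1.18 CPM). Gm16793, a predicted transcript, had 438 counts in WT/WT and 2 in D45/KO, both in replicate 1. The ratio of its pooled rates, WT/WT over D45/KO, was 534 with a 95% exact counting interval of 147 to 4421. This interval covers counting error only and leaves out the spread between mice. The 2 counts may come from the same fragment, if fragments were counted more than once.

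The remaining genes that fell were of many kinds, and their WT/WT and D45/KO libraries did not overlap apart from S100a13 (2.35, 25.3 and 28.7 against 0.980, 2.94, 1.04 and 0.346 CPM). Kctd14, a BTB domain protein, fell from 26.03, 137 and 131 to 2.89, 1.87, 1.74 and 4.56 CPM (-5.13 ± 0.94), with WT/WT replicate 1 well below replicates 2 and 3. Mfhas1, a leucine-rich repeat protein that was even in WT/WT at 55.9, 54.2 and 38.3 CPM, ranged widely in D45/KO, at 2.30, 8.82, 2.96 and 0.404 CPM (-3.77 ± 0.66). Ehbp1l1, an adaptor of Rab GTPases in endosome traffic, fell too, at 478, 1103 and 815 against 124, 88.9, 184 and 181.6 CPM (-2.47 ± 0.52). Limd1, a LIM domain scaffold, fell from 113, 283 and 188 to 50.3, 35.6, 52.2 and 48.6 CPM (-2.06 ± 0.34, called in 6 of the 7), as did Pqlc3, a PQ-loop membrane protein, from 24.2, 43.9 and 21.4 to 4.85, 6.06, 1.65 and 2.13 CPM (-3.01 ± 0.50, also 6 of the 7). Rassf7, of the Ras association domain family, fell by 2.49 on the log2 scale, G3bp2, a stress granule protein, by 1.74, Tusc3, a subunit of the oligosaccharyltransferase that adds N-glycans, by 2.02, and Ints10, of the Integrator complex, by 1.38. Nsmaf, a regulator of neutral sphingomyelinase, fell by 1.67, Pacs2, a sorting protein of the endoplasmic reticulum and mitochondria, by 1.47, and Gpr155, a membrane protein of lysosomes, by 2.04. Fsd1l, Sssca1, Fam89b, Ogfrl1, Spice1 and Tbccd1 fell by 3.14, 2.79, 2.27, 2.21, 1.70 and 1.43. The last gene of the 48 carries a symbol that a spreadsheet turned into a date and is not named.

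**Figure D3:**
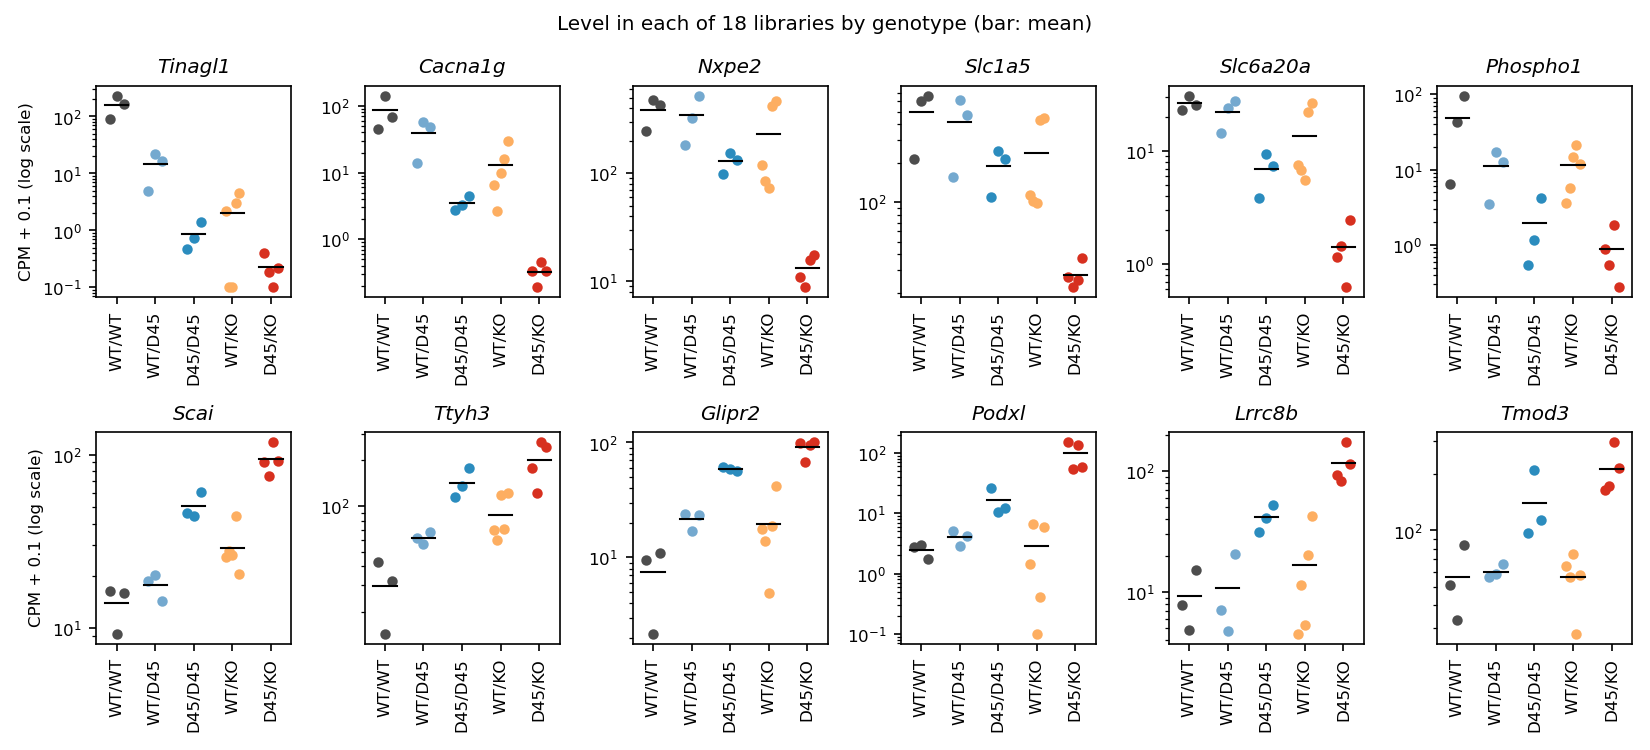
Level of 6 genes that fell (upper row) and 6 that rose (lower row) in each of the 18 libraries, as CPM + 0.1 on a log axis, with 1 point per library and a bar at the arithmetic mean of each genotype. The 4 D45/KO libraries (red) lie apart from the 3 WT/WT libraries (grey) in all 12 panels, and the D45/D45 mean (dark blue) lies between theirs.

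Scai, Tmod3, Utrn, Clasp2 and Arhgef40, which act on the cytoskeleton or its control, rose. Scai, a cofactor that represses actin-regulated transcription by MRTF and SRF, was at 16.4, 9.19 and 15.8 CPM in WT/WT. It was at 90.8, 75.2, 118 and 91.5 CPM in D45/KO, a log2 fold change of 2.76 ± 0.32 (SE, adjusted p = 6.1e-04), the smallest adjusted p of any rise. Tmod3, a tropomodulin that caps the slow-growing end of actin filaments, rose from 51.1, 33.3 and 83.8 CPM to 165, 172, 297 and 215 CPM (1.92 ± 0.39, adjusted p = 0.032, called in 2 of the 7). It was the only called gene among 40 of the membrane skeleton, which had a median of -0.08 and 19 above 0. Utrn, the dystrophin homologue utrophin, rose from 13.4, 10.4 and 23.5 to 46.6, 72.3, 108 and 82.96 CPM (2.30 ± 0.51), Clasp2, a microtubule plus-end protein, from 38.9, 21.9 and 25.8 to 68.7, 51.9, 73.3 and 78.8 CPM (1.24 ± 0.27), and Arhgef40, an exchange factor of small GTPases, from 19.8, 7.92 and 9.67 to 70.9, 38.01, 36.1 and 64.2 CPM (2.07 ± 0.43). These 3 calls each held in at most 3 of the 7 fits that leave out a library. The actin-bundling protein gene Epb4.9 (dematin) pointed the other way, at 665, 1906 and 1773 CPM in WT/WT and 100.4, 110.5, 226 and 349 CPM in D45/KO. The groups did not overlap, but it was not called (-2.88 ± 0.76, adjusted p = 0.134). With the B cell marker level of each library as a covariate Epb4.9 was called lower, at a log2 fold change of -2.43. That fit called 213 genes lower (1.59% of all tested genes), against 48 (0.358%) in the reported fit. A call of Epb4.9 thus depends on the fit chosen.

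The largest rise among called genes was that of Podxl. This gene, which encodes a sialomucin of progenitor and podocyte surfaces that is raised in stress erythropoiesis, went from 2.68, 2.85 and 1.63 CPM to 152, 55.2, 137 and 57.98 CPM. Replicates 1 and 3, the mice with an identifier under 200, were well above replicates 2 and 4 (5.38 ± 1.18, adjusted p = 0.0487, called in none of the 7 fits that leave out a library). F2r, a thrombin receptor, rose from 1.41, 1.27 and 1.63 CPM to 17.3, 12.1, 30.1 and 13.7 CPM (3.67 ± 0.76), with a flat WT/WT group. Ttyh3, a multi-pass membrane protein of the tweety family, rose from 42.7, 14.3 and 31.9 CPM to 177, 122, 264 and 245 CPM (2.77 ± 0.41, adjusted p = 0.00363). Reep6, a membrane-shaping protein of the endoplasmic reticulum, rose from 8.63, 3.48 and 6.29 to 44.9, 25.6, 70.2 and 65.4 CPM (3.06 ± 0.63), and Glipr2, a Golgi-associated protein, from 9.45, 2.06 and 10.7 to 99.3, 66.9, 95.8 and 101 CPM (3.61 ± 0.62, called in 6 of the 7).

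Clint1, Golim4, Aak1, Dennd4c, Agfg1, Cpd and Exoc6, which act in vesicle traffic or the Golgi, rose, and Exoc2 fell. Clint1, an adaptor of clathrin at the Golgi and endosomes, was at 47.4, 30.6 and 39.2 CPM in WT/WT and 150.2, 117, 119 and 105 CPM in D45/KO (1.65 ± 0.24, adjusted p = 0.00363). Golim4, a Golgi membrane protein, rose from 60.01, 52.4 and 66.9 to 213, 138, 306 and 233 CPM (1.90 ± 0.34). Aak1, a kinase of the clathrin adaptor AP2, rose by 1.45 on the log2 scale, Dennd4c, an activator of Rab GTPases, by 2.36, Agfg1, of the Arf GTPase-activating family, by 2.11, and Cpd, which trims the ends of secreted proteins in the Golgi, by 2.10. Exoc6, a subunit of the exocyst whose loss impairs transferrin recycling in the haemoglobin-deficit mouse, was the tightest of the group. It was at 38.8, 33.97 and 40.1 CPM in WT/WT and 88.4, 77.7, 82.02 and 82.4 CPM in D45/KO (1.14 ± 0.24, adjusted p = 0.0403). Exoc2, a second exocyst subunit, fell instead, from 34.2, 24.2 and 43.6 to 14.5, 11.4, 8.002 and 9.66 CPM (-1.64 ± 0.35), and neither was called in any of the 7 fits that leave out a library. In the list of 31 vesicle traffic genes, which of the genes of this paragraph holds Exoc6 alone, Exoc6 was the only one called, 14 lay above 0, and the median was -0.07. At an unadjusted p under 0.05, 4 of the 31 were higher and 0 lower (over all genes tested, 4.77% and 4.16%). With the B cell marker covariate 4 were called higher and 0 lower (over all genes tested, 2.67% and 1.59%). Early in the secretory pathway, Srp72, a subunit of the signal recognition particle, rose from 52.6, 56.9 and 70.5 to 170.8, 143, 177 and 161 CPM (1.44 ± 0.23, called in 6 of the 7), and Pdia2, a protein disulfide isomerase, from 11.5, 8.55 and 13.4 to 55.7, 30.6, 50.01 and 55.1 CPM (2.10 ± 0.43).

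Prdx6, a peroxiredoxin that reduces phospholipid peroxides, was at 30.2, 23.6 and 36.9 CPM in WT/WT and 103, 77.03, 104 and 116 CPM in D45/KO (1.72 ± 0.30, adjusted p = 0.013, called in 5 of the 7). It alone was called among 28 genes of antioxidant defence, whose median was -0.17. Srebf2, the master transcription factor of sterol synthesis, rose from 76.96, 53.2 and 61.3 to 138, 110.3, 195 and 177 CPM (1.28 ± 0.26). Crtc1, a coactivator of CREB, rose by 2.46, and Suv420h2, a histone methyltransferase of heterochromatin, by 2.18 on the log2 scale. Pinx1, an inhibitor of telomerase, rose from 2.92, 3.01 and 6.18 to 15.8, 17.7, 19.6 and 21.9 CPM (2.22 ± 0.47), while Dkc1, which encodes the telomerase-associated protein dyskerin, fell from 57.1, 90.2 and 76.9 to 41.4, 24.5, 30.7 and 28.7 CPM (-1.25 ± 0.24). Zfp790, a zinc finger protein, rose from 5.53, 8.39 and 4.89 to 16.7, 22.99, 40.4 and 45.8 CPM (2.33 ± 0.38, called in 6 of the 7), with replicates 3 and 4 above replicates 1 and 2. Strip2, of the STRIPAK phosphatase complex, rose by 2.26, Cdc14a, a dual-specificity phosphatase, by 1.63, Dapp1, a phosphoinositide-binding adaptor, by 1.77, Mroh1 by 1.90, Ppfia1, a liprin, by 1.22 and Ralgapb, the regulatory subunit of a Ral GTPase-activating complex, by 1.21. The gene that rose least was Sbno2, at 44.5, 27.4 and 41.7 CPM in WT/WT and 83.6, 69.3, 88.5 and 89.1 CPM in D45/KO (1.12 ± 0.24).

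Promoters of these genes were read for the kind of element that KLF1 binds. RefSeq promoter sequences (assembly GRCm38.p6, whereas the counts rest on mm9) were matched by symbol for 32 of the 48 genes that fell and 27 of the 35 that rose. The motif CCNCNCCC, searched on both strands in the 250 bases before each start with overlapping matches counted, was in 73.9% of 46 promoters of genes that fell and 69.0% of 42 of genes that rose. It was in 62.3% of the 12573 promoters of all tested genes, and a gene can have several starts. A match is a description and not a shown binding site. The sequences below are 4 of the genes called in all 7 fits that leave out a library, 2 that fell and 2 that rose, printed 5′ to 3′ on the strand of the gene with the motif or its reverse complement in capitals.
Nxpe2 (fell; chr9:48340899-48341148, minus strand): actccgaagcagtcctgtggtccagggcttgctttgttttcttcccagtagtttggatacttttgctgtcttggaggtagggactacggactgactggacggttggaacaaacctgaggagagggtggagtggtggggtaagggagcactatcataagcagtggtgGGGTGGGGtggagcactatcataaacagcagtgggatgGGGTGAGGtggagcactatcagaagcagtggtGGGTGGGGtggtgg
Slc6a20a (fell; chr9:123678833-123679082, minus strand): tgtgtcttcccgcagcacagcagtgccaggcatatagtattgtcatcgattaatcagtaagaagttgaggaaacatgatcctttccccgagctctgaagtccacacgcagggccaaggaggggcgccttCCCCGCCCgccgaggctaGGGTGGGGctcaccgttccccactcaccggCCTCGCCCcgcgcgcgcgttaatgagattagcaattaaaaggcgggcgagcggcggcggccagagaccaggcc
Ttyh3 (rose; chr5:140649032-140649281, minus strand): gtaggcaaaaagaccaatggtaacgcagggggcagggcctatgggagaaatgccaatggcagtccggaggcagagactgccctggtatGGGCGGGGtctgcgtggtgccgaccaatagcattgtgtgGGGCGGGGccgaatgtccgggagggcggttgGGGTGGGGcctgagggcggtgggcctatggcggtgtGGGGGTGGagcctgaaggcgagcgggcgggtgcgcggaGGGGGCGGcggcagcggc
Scai (rose; chr2:39190731-39190980, minus strand): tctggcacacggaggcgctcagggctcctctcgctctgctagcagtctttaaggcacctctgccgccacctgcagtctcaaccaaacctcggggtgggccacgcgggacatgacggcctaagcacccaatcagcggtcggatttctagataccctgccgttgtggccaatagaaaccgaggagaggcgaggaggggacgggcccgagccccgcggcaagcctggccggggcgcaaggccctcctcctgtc
Nxpe2 and Slc6a20a each hold 3 matches, Ttyh3 holds 5 and Scai none in this window, so the count of matches does not follow the direction of change among these 4.

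The other genotypes were mostly intermediate for the 83 genes, which were chosen for their difference between the 2 ends. D45/KO had the lowest mean of the 5 genotypes in 42 of the 48 genes that fell and the highest in all 35 that rose. The D45/D45 mean lay between WT/WT and D45/KO in 43 of the 48 and 35 of the 35, that of WT/KO in 47 and 34, and that of WT/D45 in 44 and 30. Every D45/KO library was below all 14 libraries of the other genotypes in 26 of the 48 genes, and above all 14 in 14 of the 35. The choice of the 83 by their D45/KO values favours such extremes. The shares over all tested genes were not counted, so these counts do not mark D45/KO as particular. For Tinagl1 the means were 14.4 CPM in WT/D45, 1.89 in WT/KO and 0.768 in D45/D45, so its level was far below that of WT/WT with 1 altered allele too. For Nxpe2 they were 343, 232 and 129 CPM, where WT/WT had 386 and D45/KO 13.2 CPM. Slc2a4 stayed nearer to WT/WT in the other genotypes, at 110.2, 63.5 and 73.2 CPM against 107 in WT/WT and 9.38 in D45/KO. Among the rises, Lrrc8b had means of 9.19 CPM in WT/WT, 10.7 in WT/D45, 16.6 in WT/KO, 41.5 in D45/D45 and 116 in D45/KO. Tmod3 had 56.1, 60.2, 56.3, 139.9 and 212 CPM in the same order. These other genotypes were not tested against D45/KO here.

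**Figure D4:**
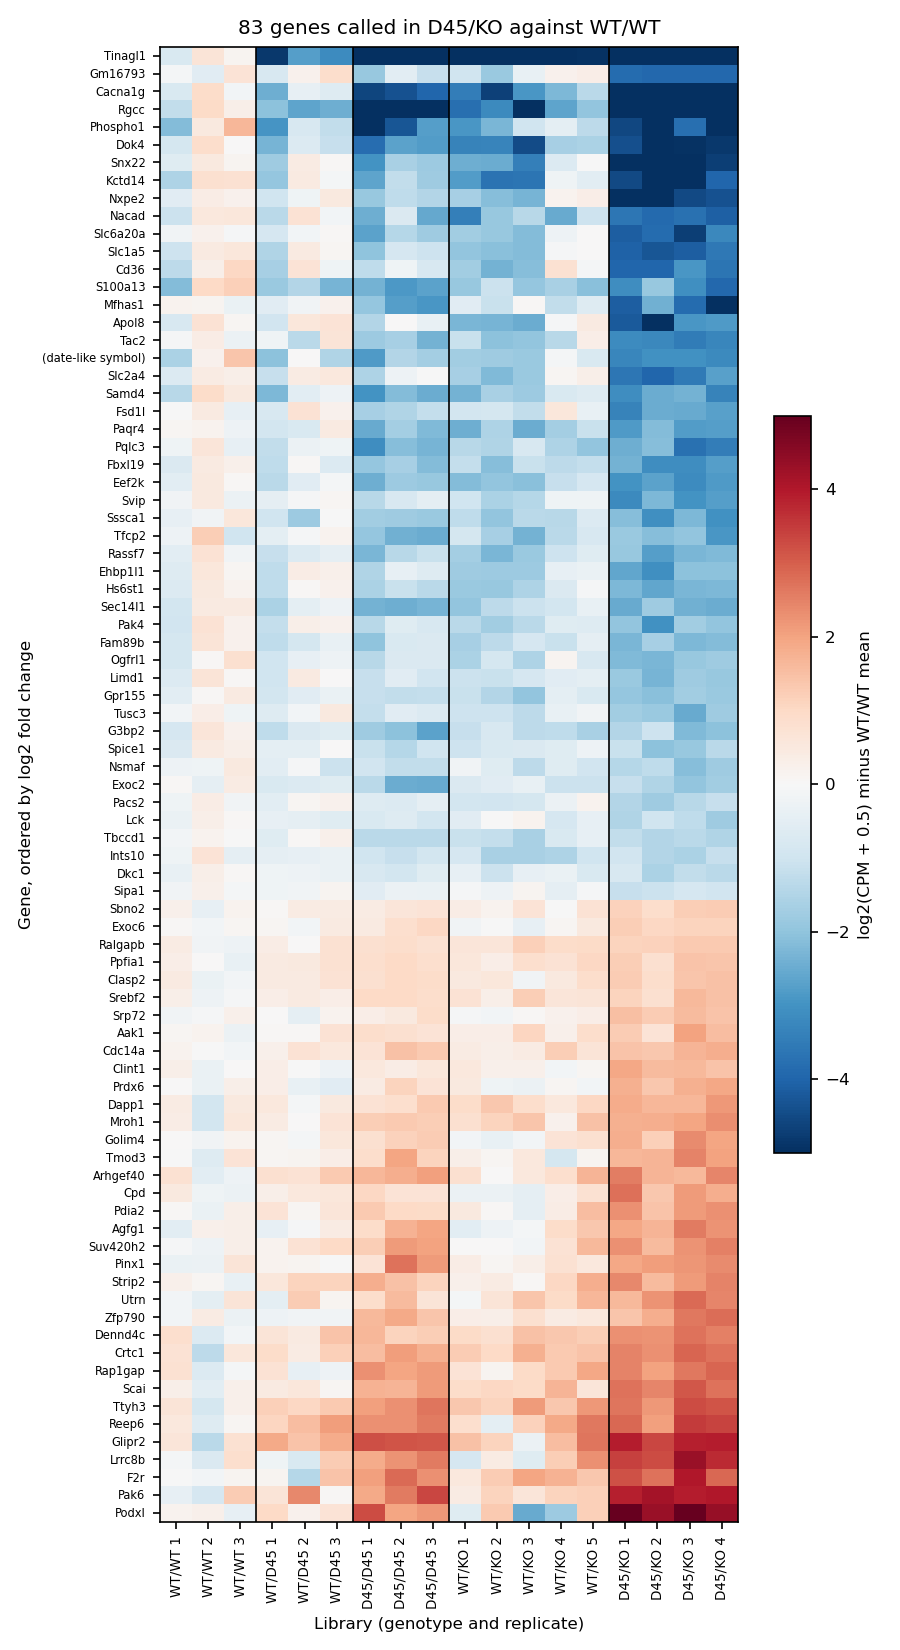
The 83 called genes (rows, ordered by log2 fold change) in all 18 libraries (columns, grouped by genotype), as log2(CPM + 0.5) minus the WT/WT mean, with colours clipped at 5 above and below 0. The D45/KO columns at the right hold the deepest blue and red, and D45/D45 columns are paler in the same direction for most genes. One symbol that a spreadsheet turned into a date is shown without its name.

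Textbook targets of KLF1 held no called gene in the fit by genotype alone. Of 39 tested, 0 were called, 1 was higher and 3 were lower at an unadjusted p under 0.05 (over all genes tested, 4.77% and 4.16%), and 8 lay above 0, with a median of -0.59. Alas2, the first enzyme of red cell haem synthesis, was at 2806, 27041 and 57198 CPM in WT/WT and 4494, 7364, 8448 and 11097 CPM in D45/KO (-1.89 ± 1.35, adjusted p = 0.821). WT/WT replicate 1 lay below every D45/KO library and replicates 2 and 3 above them, so the groups overlapped. The same layout held for the anion exchanger band 3, Slc4a1, at 8159, 28264 and 35627 CPM and 10918, 11683, 19495 and 21723 CPM (-0.59 ± 1.28), and for E2f2, a cell cycle factor of late erythroblasts, at 825, 3314 and 3985 and 1071, 1063, 1604 and 1896 CPM (-0.94 ± 0.77). The beta spectrin gene Sptb, at 0.11 ± 0.76, and the ankyrin gene Ank1, at 0.18 ± 0.67, were near 0. Klf3, a repressor of the same factor family, was at 165, 334 and 279.7 CPM and 81.9, 57.6, 103 and 103 CPM, with no overlap (-1.59 ± 0.48, adjusted p = 0.235). Tfr2, the second transferrin receptor, was the member with the largest positive value (1.08 ± 0.45). Beta globin Hbb-b1, whose counts can be split with the near-identical Beta-s, was at 25602, 305265 and 639423 CPM and 29765, 52555, 30757 and 61542 CPM (-2.89 ± 3.41). The embryonic globin Hbb-y was at 0.376, 0 and 0.932 CPM and 1.91, 0.980, 0.957 and 2.94 CPM (1.99 ± 1.43, adjusted p = 0.821).

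Values of this list differed between subsets of the libraries and with the covariate. With B cell markers as a covariate 1 of the 39 was called higher and 3 lower (over all genes tested, 2.67% and 1.59%). Among mice with an identifier under 200 the list's median was 0.51, among those over 200 it was -0.74, and with B cell markers as a covariate it was 0.04. The haem synthesis and iron list did the same, with a median of -0.34 over 37 genes, 0 called, and 0.55 and -0.60 by identifier. Genes of terminal maturation and organelle clearance had -0.49 over 28, 0 called, and 1.15 and -0.77 by identifier. In the under 200 fit WT/WT is the single replicate 1, assumed to vary like the other genotypes. The part of library makeup in these medians was not tested. With the covariate the called genes had a median of -2.72 for the 48 and 2.15 for the 35, against -2.99 and 2.10 without it. They were chosen for a steady difference between the genotypes in these same libraries, which limits how far a covariate can move them. They are therefore no fair contrast to the lists, and the part of library makeup in them was not tested.

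**Figure D5:**
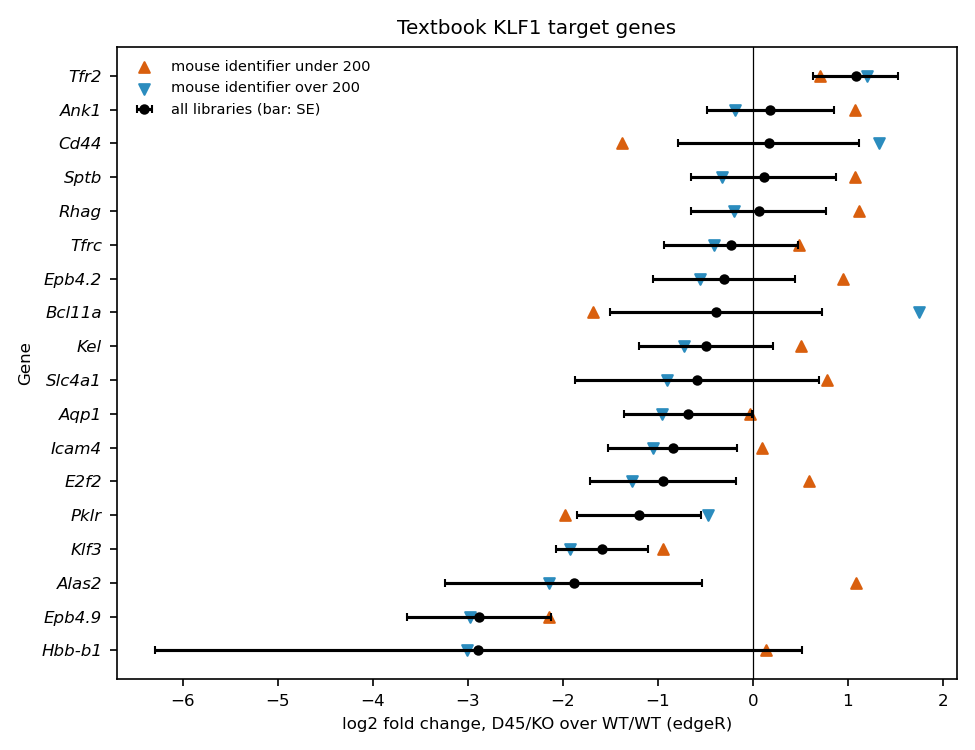
Log2 fold change of D45/KO over WT/WT for the 18 textbook KLF1 targets shown, in the fit to all 18 libraries (black, bar = SE) and in fits to mice with an identifier under 200 (orange) or over 200 (blue). None was called, and for genes such as Alas2 and Slc4a1 the values of the 2 subsets lie on opposite sides of 0.

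Erythropoietin signalling genes held 1 called gene, Podxl, among 33 tested, with a median of 0.01. Of the 33, 17 lay above 0, where 54.2% of all tested genes did. At an unadjusted p under 0.05, 4 were higher and 2 lower (over all genes tested, 4.77% and 4.16%). With the B cell marker covariate 3 were called higher and 2 lower (over all genes tested, 2.67% and 1.59%). Cish, a STAT5-induced inhibitor of cytokine signalling, was at 6.30, 2.69 and 14.1 CPM in WT/WT and 101, 98.8, 121 and 83.1 CPM in D45/KO. The lowest D45/KO library lay far above the highest WT/WT library, but the gene was not called (3.72 ± 1.15, adjusted p = 0.243). Pim1, a kinase induced by STAT5, was at 111, 353 and 589 and 574, 777, 788 and 982 CPM (1.15 ± 0.73), Socs3, a cytokine signalling inhibitor, at 1.81, 3.01 and 1.40 and 9.97, 8.91, 8.44 and 5.65 CPM (1.99 ± 0.80), and Fam132b, which encodes the iron hormone erythroferrone, at 5.13, 12.04 and 13.3 and 47.8, 28.6, 31.2 and 15.4 CPM (1.60, adjusted p = 0.75). None of these was called, and Pim1, Socs3 and Fam132b were named after their values were seen. Pik3r1, a regulatory subunit of phosphoinositide kinase, was at 137, 331 and 396 and 49.7, 70.7, 68.6 and 58.8 CPM (-2.22 ± 0.55, adjusted p = 0.0945).

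The p53 and apoptosis list had the highest median of the pathway lists apart from globins, 0.57 over 28 genes with 18 above 0 and 0 called. At an unadjusted p under 0.05, 5 were higher and 2 lower (over all genes tested, 4.77% and 4.16%). With the B cell marker covariate 5 were called higher and 1 lower (over all genes tested, 2.67% and 1.59%). The median was 0.23 among mice with an identifier under 200 and 0.76 among those over 200. Trp53 itself was at 54.3, 34.8 and 53.02 CPM and 109.9, 98.3, 95.7 and 120.2 CPM (1.16 ± 0.29, adjusted p = 0.106). Its target Mdm2, the ubiquitin ligase that limits p53, was at 45.8, 88.5 and 75.9 and 109.9, 152, 116 and 137 CPM (0.88 ± 0.35), and Sesn2, a stress-induced inhibitor of mTOR signalling, at 17.5, 30.6 and 20.04 and 38.2, 65.1, 39.6 and 50.4 CPM (1.09 ± 0.41). In each of these 3 every D45/KO library lay above every WT/WT library, which was true of 10.2% of all tested genes in one direction or the other. Ccng1 had 1.29 ± 0.50 and the apoptosis effector Bak1 1.14 ± 0.36. Mdm2, Sesn2 and Bak1 were named after their values were seen. The 2 lower members are of the BCL2 family. Mcl1, which restrains apoptosis, was at 216, 256.4 and 299 and 149, 149, 159 and 155 CPM (-0.75 ± 0.23), and Bcl2l11, which promotes it, at 45.9, 71.5 and 80.99 and 35.3, 23.5, 50.4 and 46.8 CPM (-0.76 ± 0.35). The lowest value of the list was that of Gadd45b (-1.16 ± 1.58).

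Cell cycle lists had medians near 0. The S, G2 and M phase list had a median of -0.02 over 34 genes and the G1/S regulators 0.01 over 26, with 0 called in both. Glycolysis and pentose phosphate genes had 0.07 over 26, erythroid transcription factors -0.0053 over 30 and the integrated stress and unfolded protein response 0.10 over 26, again with 0 called. Interferon-induced genes had -0.65 over 31 with 4 above 0, and cytosolic ribosomal proteins -0.24 over 76 with 18 above 0, also with 0 called. Early progenitor genes had -0.39 over 20, with -2.001 and 1.06 by identifier. With the B cell marker covariate, 5 erythroid factors were called higher and 1 lower, 3 and 1 of the glycolysis list, and 3 and 0 of the stress response list. It was 1 and 1 of the early progenitor list, 0 and 1 of the interferon and ribosomal lists each, and 0 of the cell cycle lists. Over all genes tested, that fit called 2.67% higher and 1.59% lower. Among erythroid factors the corepressor gene Cbfa2t3 had the largest value above 0, at 28.6, 119 and 136 CPM and 151, 166.1, 371 and 322 CPM (1.42 ± 0.59, adjusted p = 0.467).

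Markers of other cells were measured beside these genes. The 16 megakaryocyte and platelet markers summed to 38.4 to 209.5 CPM in WT/WT and 440 to 828 CPM in D45/KO, without overlap. The 13 tested had a median of 1.02, and 0 of them were called. With the B cell marker covariate 4 were called, all higher (over all genes tested, 2.67% higher and 1.59% lower). Itga2b made up most of each D45/KO sum, and without it the sums were 30.0 to 72.9 CPM in WT/WT and 116 to 174 CPM in D45/KO, still without overlap. Most of what was left in each library came from Vwf and Gp9, whose values follow, so these sums say little about the other markers. Of the 13 tested, 9 lay above 0 and 4 below it, lowest Selp at -1.85 ± 2.03. Itga2b, the platelet integrin alpha chain, which early erythroid progenitors also carry, was at 8.39, 19.9 and 137 CPM in WT/WT and 324, 415, 405 and 654 CPM in D45/KO (3.04 ± 0.98, adjusted p = 0.268). Vwf, the von Willebrand factor, was at 11.8, 15.5 and 46.6 and 64.8, 87.3, 111 and 107 CPM (1.92 ± 0.70) and Gp9, a platelet glycoprotein, at 11.7, 24.6 and 17.6 and 35.96, 30.5, 26.7 and 52.9 CPM (1.02 ± 0.56). Thbs1, thrombospondin, had 8 counts over the WT/WT libraries and 1267 over the D45/KO libraries (6.35 ± 1.62, adjusted p = 0.114). The platelet-defining Pf4 and Ppbp were at or under 1.40 CPM in all 7 libraries, and Treml1 had no count in any of them. Macrophage markers had a median of 1.45 over 20 genes, 0 called, and 0.16 with the B cell marker covariate. Csf1r, the macrophage growth factor receptor, was at 50.4, 26.6 and 71.8 CPM in WT/WT and 22.6, 475, 67.3 and 16.7 CPM in D45/KO, and Vcam1, an adhesion molecule of island macrophages, at 49.5, 43.2 and 80.4 and 33.3, 660.2, 111 and 20.5 CPM, so D45/KO replicate 2 alone was high. B cell markers had a median of -0.21 over 16 genes, neutrophil markers -1.21 over 16, mast cell and basophil markers -2.05 over 9 and endothelial and stromal markers 0.10 over 10, with 0 called in each. The part of these cells in the called genes was not tested. Without D45/KO replicate 2, 60 genes were called, and 54 of the 83 were among them.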

How the data were processed

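RNA-seq libraries were made by the submitters from sorted spleen erythroblasts with Trizol and a Swift Rapid kit, according to the protocols in the labels. HISAT2, featureCounts, limma and mm9 are listed, with no version or role, per the submitters' processing notes. Strand use in counting is not stated there, so overlapping and antisense genes are uncertain. The authors deposited whole-number counts per gene symbol for 18 libraries in 23365 rows, of which 27 carry date-like symbols and 4 share 2 repeated symbols. A further table of processed values was not used here.

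The labelled genotype gave each library its group. A model of the counts was fitted in edgeR 4.0.16 (R 4.3.3) by quasi-likelihood, with genotype as the only term over all 18 libraries, after filterByExpr and TMM scaling. Calls used a Benjamini-Hochberg adjusted p under 0.05 over 13405 genes. The SE is the absolute log2 fold change divided by the square root of F, and is approximate. CPM use TMM-adjusted sizes, whose factors ran from 0.366 (WT/WT replicate 3) to 1.84 (WT/WT replicate 1) in the 7 libraries. Between 54.9% and 99.8% of values from 1 to 200 were even in these libraries, so a fragment may be counted more than once. Counting intervals (95%, exact) cover counting error only. Replicates are biological according to the series design.

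The genes named by rule were Klf1, the 15 largest called rises and falls (at least 2 CPM in the higher group, no overlap), called members of 27 lists, genes called without each library, textbook KLF1 targets and up to 2 further genes per list. Other called genes, and Mdm2, Sesn2, Bak1, Pim1, Socs3, Fam132b, Vwf and Gp9, were named after their values were seen, and values of some textbook KLF1 targets are not reported here. The comparison, members and lists were chosen with earlier results of these data known. Alternatives were limma-voom (limma 3.58.1), DESeq2 1.42.0, other scalings, covariates, filters and subsets of libraries. Data were also simulated for D45/KO against WT/WT on 12893 genes. There edgeR called 0% of the seeded 2-fold changes, 11.6% of the 4-fold and 40.0% of the 8-fold changes. Of its 35 calls there, 1 was an unchanged gene. These values describe the simulated data only. The share of false calls in the real libraries, which differ in makeup within each genotype, was not tested.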

Additional observations from a re-analysis of the deposited data

Results flagged for a closer look

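Of 105 values tested for 1 library apart from the other 3 of D45/KO, 6 were flagged, and chance flags about 1 in 20. Groups of 3 were not tested. The values are log2 CPM with a prior count of 2.

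Rgcc, the cell cycle regulator, was at -3.16 in D45/KO replicate 4, or 0.0577 CPM against 1.34 to 1.78 CPM in the other 3 libraries. Gm16793 was at -3.55 in D45/KO replicate 1, the only one of the 4 with a count. With the other 3 libraries tied at 0, any count there would be flagged, so the chance rate given above does not apply to this gene. Tusc3, the oligosaccharyltransferase subunit, was at 2.25 in D45/KO replicate 3, or 4.70 CPM against 7.71 to 8.38 CPM.

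D45/KO replicate 2, the library high in macrophage markers, stood apart in 3 genes. Glipr2 was lower there, at 6.06, or 66.9 CPM against 95.8 to 100.7 CPM. Hs6st1 was lower as well, at 5.45, or 43.8 CPM against 54.4 to 55.7 CPM, and Paqr4 was higher, at 0.95, or 1.87 CPM against 1.01 to 1.10 CPM. In each of these genes replicate 2 stayed on the same side of all WT/WT libraries as the rest of its group.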

How the results depend on the processing

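The 83 calls moved widely with the settings. DESeq2's size factors in edgeR gave 126, DESeq2 406, limma-voom with library weights 717, the mouse identifier as a covariate 138 and the B cell marker covariate 571 (358 higher, 213 lower). Limma-voom gave 75, no filter 60, the 7 libraries alone 59 and robust estimation 83. Leaving out 1 library gave 19 to 121. Chosen after seeing the data, counts divided by 2 gave 87, mice with an identifier under 200 gave 607, those over 200 gave 5, and leaving out WT/WT replicate 2 and D45/KO replicate 2 together gave 8. All 83 signs were kept in every setting. The change of a gene's log2 fold change from the reported fit had a median over all genes past 0.1 in size without WT/WT replicate 2 (-0.15), under 200 (-0.31), over 200 (0.14) and without both doubted libraries (-0.17). The median log2 fold change of all genes itself, 0.07 as reported, ran from -0.14 without both doubted libraries to 0.32 over 200, and was 0.31 without WT/WT replicate 1. The causes were not tested.

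Replicate numbers were not taken as pairs in the reported fit. Deviations of same-numbered libraries correlated at 0.36, -0.31 and 0.04, and those of other pairs at -0.56 to 0.39. So few values cannot show whether the numbers pair the libraries. With the number as a replicate block 209 genes were called, 82 of the 83 among them.

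Uncalled genes changed sign as follows. Under 200 only, values were 0.38 for Klf1, 0.95 Epb4.2, 0.78 Slc4a1, 1.09 Alas2, 0.59 E2f2, 0.51 Kel, 0.093 Icam4, -1.37 Cd44, 0.49 Tfrc, 0.14 Hbb-b1, 0.13 Mpp1, 0.55 Iscu, 0.94 Slc25a39, 0.41 Gabarapl2, 1.11 Ube2l6 and 1.59 Bpgm. Over 200 only they were -0.19 for Ank1, -0.33 Sptb, 1.75 Bcl11a and -0.20 Rhag. With the mouse identifier covariate they were 0.25 for Epb4.2, 0.0081 Slc4a1, 0.38 Bcl11a and 0.14 Tfrc, and with the B cell marker covariate 0.35 for Epb4.2, 0.10 Slc4a1, 0.078 Kel, -0.70 Cd44 and 0.24 Tfrc. The replicate block gave -0.037 for Ank1, -0.13 Sptb, 1.27 Bcl11a and -0.14 Rhag. Library weights gave 0.46 for Bcl11a, -0.24 Rhag and -0.68 Cd44. Cd44 was at -0.54 by limma-voom and -1.26 without both doubted libraries. Leaving out 1 library gave ranges of -0.70 to 0.29 for Epb4.2, -0.12 to 0.37 for Ank1, -0.19 to 0.34 for Sptb, -0.87 to 1.91 for Bcl11a, -0.30 to 0.42 for Rhag, -0.88 to 0.86 for Cd44, -1.62 to 0.17 for Pklr and -0.53 to 0.014 for Tfrc.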
